A study of Homo sapiens with 26 samples.

Results

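Guides against 4 gene names were followed through a CRISPR knockout screen in rhabdomyosarcoma cells: PCNA, RPA3, RPL23A and PRL9. The guides were chosen by the gene name that the count files pair with each of them. They comprised 32 distinct guide names, of which 11 were for PCNA, 14 for RPA3, 3 for RPL23A and 4 for PRL9. Counted once per library, they made up 96 of 12342 combinations of guide and library. PCNA was carried by all 12 libraries: the same 7 guides recurred in each of 10 pools, 4 other guides lay in an exon scan library, and 1 of those 4 was also in a small test library. RPA3 had 10 guides in pool CF2 and 4 in the exon scan, and the guides of RPL23A and PRL9 were found in the exon scan only. PRL9 is given as the files spell it; it matched no symbol and no synonym in the RefSeq gene table of GRCh38.p14, whereas the other 3 names were current symbols. The count files name the guides without their sequences or targets' positions, so each guide is identified by its name.

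PCNA forms the ring-shaped sliding clamp that holds DNA polymerases on the template at the replication fork. RPA3 is the smallest subunit of replication protein A, which coats single-stranded DNA while it is copied or repaired. RPL23A is a protein of the large ribosomal subunit. Dividing cells depend on such genes, and guides against them are therefore often used in knockout screens as controls that should be lost from a growing culture.

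The cells were RH4, an established alveolar rhabdomyosarcoma line labelled PAX3-FOXO1+, that is, carrying the fusion of those genes; all samples share that line and genotype, and each carried a library of guide RNAs. In the differentiation screen, infected and drug-selected cells were fixed at day 7 and stained for MYH, the myosin heavy chain of contractile muscle. Flow sorting then gave a fraction with high and a fraction with low staining, called MYH high and MYH low. Sorted libraries were the 10 pools (CF1 to CF3, DR1 and DR2, KP1 and KP2, TF1 to TF3), the exon scan and the test library. The exon scan was also sampled at day 3 and, after drug selection, at day 18 to measure loss from the culture. All results come from 1 cell line, and the labels name neither the nuclease nor its delivery. Only the 7 PCNA guides of the pools had repeats, in 10 separate sorts, since every library has a single sample per arm. The labels do not say whether these sorts were separate infections, and p-values measure only the spread between them.

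The 26 samples held 5548348 to 166032777 counts. The 96 combinations had at least 3649 counts per sample, and none was removed by the minimum of 10 counts over both arms. Values are given in CPM (a guide's share of its sample's total count, times 1000000), and differences as log2 ratios, with MYH high cells or day 18 on top, on the log2(CPM + 1) scale. Counting error was small: the exact 95% binomial interval of a guide's CPM reached at most 3.26% to either side, and the counting error of a log2 ratio ran from 0.0036 to 0.0272. These intervals cover counting error only, since reads from PCR without molecular identifiers are not independent molecules. In pool CF3 the 10 negative-control guides had a median log2 ratio of 1.30, against -0.11 to 0.07 in the other pools, and the PCNA results over pools are given with and without CF3. Pool ratios were centred on the median of all guides of the pool, and those of the exon scan and test library on their 790 and 50 negative-control guides. Before centring, the negative controls of the exon scan stood at 0.23 at day 18 over day 3 and at -0.09 in the sort, so a guide with slightly more CPM at day 18 can have a ratio below 0.

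PCNA guides were slightly more abundant in MYH high than in MYH low cells, relative to all guides of the pool. The value of a pool is the median over its 7 PCNA guides. It was 0.23 in TF1, 0.35 in TF2, -0.11 in TF3, 0.05 in KP1, -0.002 in KP2, 0.14 in DR1, 0.05 in DR2, 0.19 in CF1, 0.13 in CF2 and 1.34 in CF3. CF3 stood apart at 2.53-fold; of the other 9 pools TF2 was the highest and TF3 the lowest. Among those 9, neighbours in the order of values differed by less than the SD over guides within either pool of the pair. That SD ran from 0.09 in CF1 to 0.49 in TF2. The mean over pools was 0.24 ± 0.41 (SD, n = 10 pools), or 1.18-fold, and 8 of 10 pools were above 0 (exact sign-flip permutation test over pools, two-sided, adjusted p = 0.0293). Without CF3 it was 0.12 ± 0.14 (SD, n = 9 pools), and 7 of 9 were above 0 (exact permutation test, adjusted p = 0.0586). With no centring the mean over the 10 pools was 0.14, with 5 of 10 above 0 (exact permutation test, adjusted p = 0.334), so the call depends on the centring. The smallest unadjusted p that this test allows is 0.00195 with 10 pools and 0.00391 with 9. The p-values of this test were adjusted by Benjamini-Hochberg over 3 comparisons of PCNA, against 0 and against each of the guide sets below. Leaving out TF1, TF2, DR1, DR2, CF1 or CF2 in place of CF3 gave that same adjusted p, 0.0586, in the exact permutation test. Before adjustment, p in this test was 0.0234 without DR2 and 0.0391 without TF1, TF2, DR1, CF1, CF2 or CF3.

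Set against the negative-control guides of the same sort, PCNA had a shift of a size that CF3 did not set. The difference was 0.05 in CF3, where both sets were high, and 0.22 in TF1, 0.46 in TF2, -0.09 in TF3, 0.04 in KP1, -0.0006 in KP2, 0.10 in DR1, 0.16 in DR2, 0.12 in CF1 and 0.22 in CF2. Its mean was 0.13 ± 0.15 (SD, n = 10 pools), or 1.09-fold, and 8 of 10 pools were above 0 (exact permutation test, adjusted p = 0.0293). Without CF3 the mean was 0.14 ± 0.16 (SD, n = 9 pools; exact permutation test, adjusted p = 0.0586). The same adjusted p resulted without TF1, TF2, DR1, DR2, CF1 or CF2, so at the adjusted threshold the call was lost without any 1 of 7 of the 10 pools. Before adjustment, p in the exact permutation test was 0.0234 without CF3 and 0.0391 without TF1, TF2, DR1, DR2, CF1 or CF2. These adjusted values count 3 comparisons, including the comparison below with PAX3 guides, which was added after the values were seen. When the guides were averaged instead, the difference was 0.11 (exact permutation test, adjusted p = 0.354). The averaged PCNA value itself was 0.249 (exact permutation test, adjusted p = 0.0234). Among the negative controls the SD over guides ran from 0.07 in KP2 to 1.39 in CF1. Without their guide sgRNA3239 it ran from 0.07 in DR2 to 0.35 in CF3. The averaged difference without that guide was not tested.

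Guides against the part of PAX3 outside the fusion gave a second baseline, from guides that have a target in the genome; this comparison was added after the values were seen. Their own mean over pools was 0.19 ± 0.31 (SD, n = 10 pools), and 0.09 ± 0.08 (SD, n = 9 pools) without CF3. PCNA lay above them by 0.05 ± 0.15 (SD, n = 10 pools), in 6 of 10 pools, from -0.22 in TF3 to 0.30 in CF3. A difference between PCNA and these guides was not detected over 10 sorts (exact permutation test, adjusted p = 0.309). Without CF3 it was 0.02 ± 0.12 (SD, n = 9 pools).

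Of the 7 PCNA guides, 1 passed the test across pools. In edgeR's quasi-likelihood test with the pool as a block, fitted on the 59 shared guides with enough counts and adjusted by Benjamini-Hochberg over them, 24 guides were higher in MYH high cells (40.7%) and 0 lower (0.0%). At an unadjusted p under 0.05 edgeR and DESeq2 each gave 29 higher and 0 lower, with 2 PCNA guides among the higher. Without CF3 the adjusted calls were 25 higher and 2 lower, with 1 PCNA guide among the higher. The PCNA calls depend on the scaling: with scale factors taken from the shared guides by TMM or DESeq2, the median of those guides moved by -0.63 or -0.67, and 6 or 7 PCNA guides were called lower, among 36 or 37 lower of all 59. Outside the PAX3-FOXO1 fusion sets 3 of 38 guides were higher (7.89%), 1 each of PCNA, PAX3_non-fusion and MYOD1.

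The guide that passed was sgRNA3227. It held 312 to 987 CPM over the MYH low samples (median 544) and 476 to 965 CPM over the MYH high samples (median 721). The sorted fractions overlapped. Within pools its log2 ratio was 0.56 in TF1, 0.14 in TF2, -0.05 in TF3, 0.12 in KP1, 0.51 in KP2, 0.14 in DR1, 0.05 in DR2, 0.12 in CF1, 0.35 in CF2 and 1.32 in CF3. It was thus above 0 in 9 of 10 pools, with TF1 and KP2 the highest after CF3. Its fitted log2 fold change was 0.32 (SE 0.12), with an adjusted p of 0.041 in edgeR's test. Without CF3 it was 0.22 (SE 0.07), with an adjusted p of 0.0213 in edgeR's test. The call was lost without TF1, KP2, DR1 or CF2, where the adjusted p in edgeR's test was between 0.0520 and 0.0941.

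Guide sgRNA3230 had the largest fitted change of the 7 and did not pass. It held 432 to 1087 CPM over the MYH low samples (median 543) and 437 to 1313 CPM over the MYH high samples (median 714). Its log2 ratio reached 1.48 in TF2 and 1.43 in CF3; over the remaining 8 pools it ran from -0.11 to 0.29. The fitted log2 fold change was 0.38 (SE 0.15), with an adjusted p of 0.0584 in edgeR's test. Without CF3 it was 0.27 (SE 0.14), with an adjusted p of 0.152 in edgeR's test. The next highest PCNA guide of TF2 was sgRNA3228 at 0.40. sgRNA3230 passed with an adjusted p of 0.0350 in edgeR's test without TF3, 0.0490 without KP2 and 0.0482 without CF2.

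The other 5 PCNA guides had fitted log2 fold changes of 0.13 (sgRNA3231) to 0.26 (sgRNA3228), and none passed. CF3 set much of these values: without it they were 0.11 for sgRNA3226, 0.14 for sgRNA3228, 0.07 for sgRNA3229, 0.08 for sgRNA3231 and 0.11 for sgRNA3232, and again none passed. Guide sgRNA3232 was the most abundant PCNA guide in the MYH low sample of all 10 pools, at 1494 to 2433 CPM, and had a fitted value of 0.23 (SE 0.16). Its log2 ratio was above 0 in 7 of 10 pools. Guide sgRNA3231 was the least abundant in 8 of 10, at 355 to 662 CPM, and had 0.13 (SE 0.11). It held the lowest value of any PCNA guide, -0.64 in DR1, where the other 6 guides lay above 0. Guides sgRNA3226 and sgRNA3229 had fitted values of 0.22 (SE 0.13) and 0.17 (SE 0.12).

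Over guides and pools together, 55 of 70 PCNA ratios lay above 0, with a median of 0.13. At least 0.3 in size (1.23-fold) were 22 higher and 2 lower ratios; among all guides of the 10 pools 10.1% were that much higher and 6.25% that much lower. CF3 supplied 7 of the 22, from 0.60 to 1.43. Without CF3 there were 15 of 63 higher and 2 lower, beside 9.02% and 5.01% of all guides of those 9 pools, and the median was 0.12. Guides of 1 gene share their target and their sort, so these ratios are not replicates.

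Of the other guide sets that every pool carries, PAX3_Fusion_DBD had medians most like those of PCNA in their order over the 10 pools (Spearman rho 0.65), followed by PAX3_non-fusion (rho 0.62). Without CF3 the values were 0.63 and 0.48 over 9 pools, and FOXO1_fusion was level with PAX3_non-fusion at 0.48. These are descriptions: the sets share each pool's cells, sort, depth and centring.

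The authors' deposited table gives each target of a pool a model score, beta. For PCNA, beta in the authors' deposited table was above 0 in 9 of 10 pools, from -0.03 in TF3 to 0.29 in TF2, with 0.84 in CF3. Its false discovery rate in the column fdr was under 0.05 in 1 pool, CF3, and in the authors' deposited table's Wald column in 0, where it ran from 0.124 in CF1 to 0.938 in DR1.

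RPA3, the other replication gene, had a pool value only in CF2. Its 10 guides held 341 to 952 CPM in MYH low cells and 320 to 913 CPM in MYH high cells. Their median log2 ratio was 0.07, a 1.05-fold difference (SD 0.15 over guides), and 8 of 10 lay above 0. This direction depends on the centring: uncentred, the median was -0.07 and 1 of 10 guides lay above 0. It ranked 27th from the top of the 104 targets of that pool, of which 1.92% were at least 0.3 higher and 1.92% at least 0.3 lower. The highest guide was sgRNA_10133 at 0.38, with 625 CPM in MYH low and 744 CPM in MYH high cells. The lowest was sgRNA_10134 at -0.24, with 416 and 320 CPM. The remaining 8 lay between -0.03 and 0.11. In the same sort the PCNA guides had 0.13 and the negative controls -0.09, so that RPA3 stood 0.16 above the negative controls, with no replicate check. In the authors' deposited table RPA3 has a beta of 0.04 and a false discovery rate of 0.879.

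Few other genes of replication or of the ribosome were targets of the pools. Of 73 names on the lists of fork, single-strand binding, licensing and checkpoint genes, and of all ribosomal proteins, 10 genes besides PCNA and RPA3 were measured, in 11 measurements. Among these 0 were at least 0.3 higher and 0 at least 0.3 lower, beside 1.52% and 0.813% of the 984 target measurements of all pools. Their median was 0.07, beside -0.009 over all target measurements. Apart from PCNA, the clamp, loader and polymerase list had 1 measured member, POLE3, a subunit of DNA polymerase epsilon, with 0.17 (SD over guides 0.30). The licensing list had 1, CDC7, the kinase that activates the replicative helicase, with 0.15 (SD 0.15). The highest of the checkpoint and chromatin list was CHAF1B at 0.20 (SD 0.20), a subunit of the histone chaperone CAF-1 that PCNA recruits. The lowest was ATR at -0.13 (SD 0.11), the kinase that answers stalled forks. The ribosomal list had 1 measured member, RPL9, with 3 guides and 0.07 (SD 0.45). POLE3 and RPL9 lie in CF3, where the negative controls were high, and stood 1.13 and 1.23 below them.

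In the exon scan, guides of all 4 gene names had medians below 0 at day 18 over day 3. Of the 15 guides, 14 lay below 0 and 10 stood at -0.3 or lower, beside 37.6% of all 1619 guides and 3.8% of the negative controls. At least 0.3 higher was 1 of the 15, beside 5.37% of all guides and 9.37% of the negative controls. The central 95% of the negative controls ran from -0.34 to 0.52, and 10 of the 15 guides lay under it. The median over the 15 guides was -0.58, beside -0.15 over all guides, most of whose targeting guides are against PAX3, FOXO1 and MYOD1. With 1 sample per time these are differences between samples, with no replicate check and no test.

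For PCNA the loss was carried unequally by its 4 guides, with a median of -0.48 (SD over guides 0.89). It was -0.25 with no centring, under the size used for a call, and -0.76 as a mean over guides. Guide PCNA_e3.2 went from 668 CPM at day 3 to 188 CPM at day 18, a log2 ratio of -2.05. PCNA_e2.1 went from 350 to 274 CPM, a log2 ratio of -0.58. PCNA_e2.2 went from 289 to 262 CPM, a log2 ratio of -0.37. The fourth, PCNA_e3.1, had 560 and 643 CPM and a log2 ratio of -0.03, within the central range of the negative controls. The guides of this gene thus differed widely from each other.

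PRL9 had the lowest median of the 4 names, -0.95 (SD over guides 0.81), or 0.518-fold. Guide PRL9_e4.2 went from 492 CPM at day 3 to 139 CPM at day 18, a log2 ratio of -2.05, as low as that of PCNA_e3.2. PRL9_e4.1 went from 819 to 470 CPM (-1.03), and PRL9_e3.2 from 716 to 460 CPM (-0.87). PRL9_e3.1 had 994 and 1107 CPM and a log2 ratio of -0.07, so that 3 of 4 guides were lost.

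RPA3 guides went both ways, with a median of -0.55 (SD over guides 0.72). It was -0.90 without RPA3_e1.2 and -0.32 with no centring. Guide RPA3_e1.1 went from 298 to 160 CPM, a log2 ratio of -1.12. RPA3_e1.3 went from 509 to 320 CPM, a log2 ratio of -0.90. RPA3_e2.1 had 826 CPM at day 3 and 840 CPM at day 18, a log2 ratio of -0.20. RPA3_e1.2 went the other way, from 319 to 522 CPM, a log2 ratio of 0.48. This was the only 1 of the 15 guides above 0, and it lay inside the central range of the negative controls.

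RPL23A had a median of -0.52 (SD over guides 0.30) over 3 guides, and of -0.29 with no centring. RPL23A_e3.1 went from 1118 to 877 CPM, a log2 ratio of -0.58. RPL23A_e2.2 went from 532 to 436 CPM, a log2 ratio of -0.52. RPL23A_e2.1 had 935 and 1074 CPM, a log2 ratio of -0.03. Its lowest guide was thus higher than the lowest guides of the other 3 names. The medians of RPA3, RPL23A and PCNA differed by less than the spread over guides. The PRL9 median of -0.95 lay below each of these by less than the SD over PRL9 guides, 0.81. Beside them, CDK1 had -0.81, POLR2A -0.41 and CDK9 -0.23.

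In the sort of the same library the medians were near 0.3 for PCNA and PRL9 and near 0 for RPL23A and RPA3. The median log2 ratio of PCNA in the sort was 0.30 (SD over guides 0.36) and that of PRL9 0.27 (SD 0.47), whereas RPL23A had 0.02 (SD 0.13) and RPA3 -0.03 (SD 0.22); the difference between these pairs was not larger than the spread over the PCNA or PRL9 guides. At least 0.3 higher were 4 of the 15 guides, 2 of PCNA and 2 of PRL9, beside 19.5% of all guides and 5.82% of the negative controls. At least 0.3 lower were 0 of the 15, beside 1.98% of all guides and 2.28% of the negative controls. The median over the 15 guides was 0.06 and that over all guides 0.07.

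The highest of the 15 was PRL9_e4.1, with 696 CPM in MYH low and 1310 CPM in MYH high cells, a log2 ratio of 1.004. It exceeded every negative control, the highest of which had 0.83. PRL9_e3.2 had 629 and 773 CPM (0.39), PRL9_e4.2 had 380 and 396 CPM (0.15), and PRL9_e3.1 had 1096 and 972 CPM (-0.08). Of the PCNA guides, PCNA_e3.2 had 463 CPM in MYH low and 646 CPM in MYH high cells (0.57), and PCNA_e2.2 had 292 and 400 CPM (0.54). PCNA_e2.1 had 352 and 344 CPM (0.06), and PCNA_e3.1 had 659 and 552 CPM (-0.16). The PCNA median of 0.30 therefore lies between a pair of higher guides and a pair near or below 0. The guides of RPA3 ran from -0.22 (RPA3_e1.1) to 0.27 (RPA3_e1.2), and those of RPL23A from -0.19 (RPL23A_e2.2) to 0.05 (RPL23A_e2.1).

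The PCNA value sits at the size used for a call and falls below it under small changes: it was 0.23 when centred on all guides, 0.21 with no centring and 0.25 as a mean over guides. For PRL9 the mean over guides was 0.37, and without PRL9_e4.1 the median was 0.15. RPL23A turned below 0 when centred on all guides (-0.04), with no centring (-0.07) and as a mean (-0.04).

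All 4 guides that were at least 0.3 higher in MYH high cells were among the 10 that stood at -0.3 or lower at day 18 over day 3. Among them, PCNA_e2.2 had -0.37 at day 18, and -0.14 with no centring. These 4 guides made up the whole of the first list and 40.0% of the second. Over all 1619 guides, 250 were on both lists. That is 79.1% of the 316 higher in the sort and 41.1% of the 608 lower at day 18. Most targeting guides of the library are against PAX3, FOXO1 and MYOD1. Of the 790 negative controls 6 were on both lists, among 46 higher in the sort and 30 lower at day 18. These are smaller shares of both lists. The 40.0% is near the 41.1% of all guides, whereas the first list of the 15 guides holds only 4. Among the 15 guides, those lower at day 18 were not all higher in the sort. RPA3_e1.1 and PRL9_e4.2 had log2 ratios of -1.12 and -2.05 in culture, and -0.22 and 0.15 in the sort. Across the 15 guides the Spearman correlation between the ratios was -0.21, a description over guides that share targets and libraries.

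In the plane of both medians, the scan target nearest to PCNA was FOXO1, at a distance of 0.14 log2 units among 10 targets. RPA3 and RPL23A were each other's nearest, at 0.06, followed by POLR2A at 0.15 for both. Nearest to PRL9 were PAX3 at 0.11 and CDK1, the mitotic kinase, at 0.14. The SD over guides was 0.36 in the sort and 0.89 at day 18 over day 3 for PCNA, and 0.47 and 0.81 for PRL9. The distances given for PCNA and PRL9 were smaller than these SDs. For RPA3 the SDs were 0.22 and 0.72, and for RPL23A 0.13 and 0.30, each larger than the 0.06 between these genes. The order of neighbours is therefore a description.

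The test library carried 1 PCNA guide, PCNA_e2.1, also present in the exon scan under that name. It held 5865 CPM in MYH low and 4297 CPM in MYH high cells, a log2 ratio of -0.34, or 1.26-fold lower in MYH high cells. Of the 50 negative controls, 2 lay lower; at least 0.3 lower were 4.12% of all 97 guides and 4.0% of the negative controls. In the exon scan its log2 ratio was 0.06, and -0.03 with no centring. In the test library 3 of the guides counted as negative controls carry names that the exon scan assigns otherwise (CDK9_e2.1, POLR2D_e2.1 and hRosa); without them the centring moved by 0.0003.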

How the data were processed

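Guide cassettes amplified from genomic DNA were sequenced, and the deposited values are the authors' raw counts for each guide. The submitters' processing notes list MAGeCK and FastQC with no version. Deposited pool tables add a score (beta, log base not stated), false discovery rates and p-values per target, per the file headers; 2 columns without a name were not used.

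Counts were scaled to CPM and log2 ratios taken with a pseudocount of 1 CPM. A gene's value is the median over its guides; called means at least 0.3 in size where there is 1 sample per arm. The 7 shared PCNA guides were tested with edgeR 4.0.16 (R 4.3.3) on the deposited counts of guides with at least 10 counts over both arms in every pool, and the PCNA value with an exact sign-flip test over pools. DESeq2 1.42.0 was an alternative. The fit was tested on simulated counts with no shift to centre, so that check does not cover the centring or the scaling. The guides named are all guides of the 4 names, with comparators fixed by rule: the negative controls, CDK1, CDK9 and POLR2A, list members past 0.3 or else the highest and lowest, and the nearest patterns. Members, lists and rules were chosen with earlier results of these data known. Guide sequences and a genome build were not used here. Alternatives were other centrings, scalings, pseudocounts, count minimums, summaries and single pools or guides left out. Ratios and exact tests were computed in Python 3.11.15 with scipy 1.17.1, pandas 2.3.3 and numpy 2.4.6.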

Additional observations from a re-analysis of the deposited data

Results flagged for a closer look

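In pool CF3 the PCNA median of 1.34 lay far above the other 9 pools. The same held for 5 of the 7 PCNA guides there: sgRNA3226 at 1.34, sgRNA3227 at 1.32, sgRNA3228 at 1.39, sgRNA3229 at 1.03 and sgRNA3232 at 1.34. Of 10 such checks 6 stood out, where chance gives about 1 in 20, and the checks share the pool and the gene. The negative controls of CF3 had a median of 1.30, and PCNA minus the negative controls did not stand out in that pool (0.05); the part of the CF3 sample itself in the guides' values was not tested.

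Guide PCNA_e2.1 had a log2 ratio of -0.34 in the test library and 0.06 in the exon scan, opposite in sign after centring. With no centring the ratios were -0.45 and -0.03, both below 0, so the opposite signs depend on the centring. CDK1_e5.1, the other guide that both libraries assign to the same gene, was also lower in the test library. It had -0.001 there and 0.44 in the exon scan. There is 1 sample per arm in each library, and the difference was not tested.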

How the results depend on the processing

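With TMM or DESeq2 size factors computed over the shared guides, 0 PCNA guides were higher and 6 or 7 lower, among 21 or 20 higher and 36 or 37 lower of all 59. These scalings moved the median of all shared guides by -0.63 and -0.67; 21 of the 59 guides are against the fusion. Under TMM the fitted values were -0.40 (sgRNA3226), -0.30 (sgRNA3227), -0.36 (sgRNA3228), -0.46 (sgRNA3229), -0.24 (sgRNA3230), -0.49 (sgRNA3231) and -0.40 (sgRNA3232), and under DESeq2 size factors -0.44, -0.34, -0.40, -0.50, -0.29, -0.54 and -0.44. With library totals alone or no pool block 0 PCNA guides passed, of 21 and 20 among all 59, and leaving out 1 pool gave 0 to 2, of 22 to 25. DESeq2's Wald test and negative-control centring gave 1. The PCNA value over pools was 0.14 with no centring (adjusted p of 0.334, exact permutation test) and 0.12 to 0.28 with 1 pool left out; its difference from the negative controls was then 0.0905 to 0.152. By the mean over guides, the PCNA value over pools was 0.249 (adjusted p of 0.0234, exact permutation test). The difference from the negative controls was 0.11 by that mean (adjusted p of 0.354, exact permutation test). With PAX3_non-fusion in place of the negative controls, the difference of medians was 0.0501 (adjusted p of 0.309, exact permutation test). Negative-control centring moved the median of the shared guides by -0.11, with 23 higher and 2 lower calls among them.

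In the exon scan the PCNA sort value fell below 0.3 in size when centred on all guides (0.23), uncentred (0.21), by the mean (0.25) and with a pseudocount of 5 CPM (0.297). With no centring the day 18 values of PCNA and RPL23A were -0.25 and -0.29. PRL9 in the sort had 0.37 by the mean. Of 98 alternatives for the values that answer a comparison, 63 kept sign and side of the threshold, 4 changed sign below the size of a call (RPL23A in the sort at -0.04, -0.07 and -0.04, and RPA3 in CF2 at -0.07), 27 were weaker, 2 stronger and 2 reversed. Of 119 for the single PCNA guides, 96 kept both, 14 were reversed, 6 weaker and 3 stronger. Counting error was small beside the spread over guides; the exon scan and test library have 1 sample per arm. The arms are paired by pool, as the block of the fit.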
